A study of Caenorhabditis elegans with 2 samples.

Results

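The X chromosome of Caenorhabditis elegans carried 294 reproducible CHD-7 peaks away from small RNA genes, of 1884 peaks genome-wide and 407 on X. They are the X rows of the authors' reproducible ChIP-seq list whose summit, the position of the peak maximum, lay more than 100 bp from any tRNA, snoRNA, snRNA or rRNA gene. Of the 113 X rows left out, 110 lay nearest to a tRNA gene, 2 to a snoRNA gene and 1 to a snRNA gene. The same rule kept 1279 of 1477 autosomal peaks, which serve for comparison. Beyond the summit position and membership of the reproducible list, which holds the pooled entries of highest signal, no measured value entered the rule. The removed X row nearest to the limit had its summit 81 bp from a tRNA gene (signal 437, signal being the peak caller's value for a peak), and the kept rows nearest to it lay 148 bp (signal 179) and 159 bp (signal 554) from tRNA genes.

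CHD-7 was precipitated from whole mixed-sex young adults of strain OP609, grown for 67 hours from synchronised, starved L1 larvae. The strain has the unc-119(tm4063) allele on chromosome III and the insertion wgIs609, which makes CHD-7 with a C-terminal GFP-FLAG tag, and an antibody against GFP was used. There was 1 group of 2 biological replicates, with no untagged or mutant group, so signal from all tissues and both sexes is mixed and no condition can be compared. The control experiment was not analysed here, and the files give no read depth.

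CHD-7 is the worm form of CHD7, an enzyme that uses ATP to move nucleosomes and carries chromodomains. The worm X differs from the autosomes in its gene content and its regulation. Hermaphrodites have a pair of X chromosomes and males a single one. In hermaphrodites a condensin-containing dosage compensation complex binds along X and lowers its transcription. The complex loads at recruitment elements on X, which hold a sequence called the MEX motif, and then spreads. X is also poor in genes that are active in the germline and in ribosomal protein genes.

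The strongest X peaks included a group that shared a short sequence. The letters GCGCAGGG, the central part of the published MEX motif, were searched on both strands within 75 bp of each summit. They were found in 11 of 294 X peaks, and 8 of these were among the 50 X peaks of highest signal. The reference sequence (WBcel235, the same assembly as ce11) around the match is shown for those 8 because no autosomal peak of such signal held these letters. The capitals mark the match, and each line reads 5′ to 3′ on the strand that holds it.
within mom-1 (chrX:6296522-6296581, forward strand): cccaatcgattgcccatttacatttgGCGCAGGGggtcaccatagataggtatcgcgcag
near W02H3.3 (chrX:11094200-11094259, reverse strand): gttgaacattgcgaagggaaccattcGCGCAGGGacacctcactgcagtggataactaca
upstream of nspc-17 (chrX:14525874-14525933, reverse strand): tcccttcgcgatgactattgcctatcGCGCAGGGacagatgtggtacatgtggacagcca
within pks-1 (chrX:5429564-5429623, forward strand): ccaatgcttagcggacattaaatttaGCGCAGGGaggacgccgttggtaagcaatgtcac
near F20B6.9 (chrX:4209240-4209299, reverse strand): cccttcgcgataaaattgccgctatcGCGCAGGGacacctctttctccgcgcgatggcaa
near F22H10.2 (chrX:16682146-16682205, reverse strand): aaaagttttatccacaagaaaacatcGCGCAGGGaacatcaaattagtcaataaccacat
within Y41G9A.17 (chrX:2997097-2997156, reverse strand): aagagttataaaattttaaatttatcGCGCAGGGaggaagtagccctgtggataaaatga
near gtr-1 (chrX:806648-806707, forward strand): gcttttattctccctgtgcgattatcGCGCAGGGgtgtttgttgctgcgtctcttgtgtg

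The flanks of the match were also alike. Among these 8 sequences the match was directly preceded by TC in 6 and directly followed by A in 6, and 5 had both. The peak within mom-1 and the peak near gtr-1 held a second match within 75 bp of their summits, and the others 1. The middle of each match, second ones included, lay from -26 to 58 bp of the summit, counted along the forward strand. The 8 windows within 75 bp of the summits were less GC-rich than those of the other 42 strong X peaks, with a median GC content of 45.4% against 51.99%.

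Autosomal peaks almost never held these letters. They were present in 3.74% of X peaks (95% Wilson interval 2.10% to 6.57%) and in 0.0782% of autosomal peaks (0.0138% to 0.442%), which was 1 of 1279. The difference of 3.66 percentage points has a 95% Newcombe interval of 1.98 to 6.50. None of the 141 autosomal peaks with a signal of at least 371, the signal of the fiftieth X peak, held them. Within 75 bp of the summit, none of the 113 X rows at small RNA genes did either. The occurrence at X 490008 to 490015 lay inside such an X row, but farther from its summit. The only autosomal peak with the letters lay at the 5′ end of sma-2, a Smad protein, on chromosome III, with a signal of 225. It met no entry of the replicate 1 list. Intervals here and below cover counting error of peaks, and each replicate's own list stands beside them as the check between samples.

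Both replicates gave the same picture. Among the 1884 entries of highest signal of replicate 1, filtered by the same rule, 11 of 300 X entries and 1 of 1312 autosomal entries held the letters. In replicate 2 these counts were 13 of 313 and 1 of 1270. Within the X list, the counts in successive blocks of 50 ranks were 8, 1, 0, 0 and 1, with 1 in the last 44.

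The letters themselves are rare on both kinds of chromosome. X has 81 occurrences and the autosomes 233. Cut into tiles as long as the window searched, the sequence holds them in 0.0631% of tiles on X and 0.0401% on the autosomes. Candidate regions of the pooled list that overlap no reproducible peak held them in 0.302% of 4971 cases on X and 0.0845% of 22481 cases on the autosomes. Of the X occurrences, 17 of 81 lay inside an X peak, whereas 2 of 233 autosomal ones lay inside an autosomal peak. With TC before and A after, X had 13 occurrences, 9 of them inside X peaks, and the autosomes 2, neither inside a peak. Over whole peak intervals, 13 X peaks and 2 autosomal ones held the letters, and the X ones include the peak upstream of xol-1 described below. The shorter CGCAGGG, which lies inside them, was in 16 X peaks (5.44%) and 12 autosomal ones (0.938%). The letters and the flanks were chosen after the list had been seen. A match describes the sequence only, and binding of the dosage compensation complex was not measured here.

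The 8 strong peaks with the letters were spread over the whole of X and were mostly far from promoters. The peak within an intron of mom-1, which encodes a Porcupine-like protein needed for Wnt secretion, lay at X 6296406 to 6296739 (signal 807). Its signal was 412 in replicate 1 (rank 23 of 30000) and 420 in replicate 2 (rank 24). The peak near W02H3.3, at X 11094048 to 11094352 (signal 794), had 422 in replicate 1 (rank 22) and 389 in replicate 2 (rank 32). These are among the highest entries of the whole genome in both replicates.

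The peak 723 bp upstream of nspc-17, of a nematode-specific peptide family, lay at X 14525764 to 14526055 (signal 775). It reached 320 in replicate 1 (rank 54) and 468 in replicate 2 (rank 15), and it was the only one of the 8 inside a promoter window. A coding exon of pks-1, a polyketide synthase gene, held the peak at X 5429423 to 5429648 (signal 569, ranks 79 and 76 in replicates 1 and 2). The peak near F20B6.9 (X 4209143 to 4209406, signal 561) ranked 70 in replicate 1 and 87 in replicate 2.

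The remaining 3 were a little weaker. The peak near F22H10.2 (X 16682012 to 16682220, signal 532) ranked 108 and 100 in replicates 1 and 2. An intron of Y41G9A.17 held the peak at X 2996978 to 2997184 (signal 521, ranks 157 and 71). The peak near gtr-1 (X 806599 to 806782, signal 468) had a signal of 207 in replicate 1 and 244 in replicate 2. All 8 were thus high in both replicates, but they were picked by pooled signal, which draws on both replicates, so this follows in part from the choice. Neighbouring ones were from 867039 to 4797641 bp apart, and their distance to the nearest protein-coding 5′ end ran from 723 to 15189 bp, with a median of 3023 bp against 1528 bp for the other 42 of the 50 strongest.

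The other 3 X peaks with the letters were weaker. They were a peak in an intron of the pseudogene WBGene00020829 (signal 268, ranks 408 and 921), one in an intron of Y15E3A.5 (signal 178, ranks 1586 and 2658) and one near T24D8.6 (signal 172). The last ranked 13520 in replicate 1 and 567 in replicate 2, so the replicates differ most there.

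**Figure D1:**
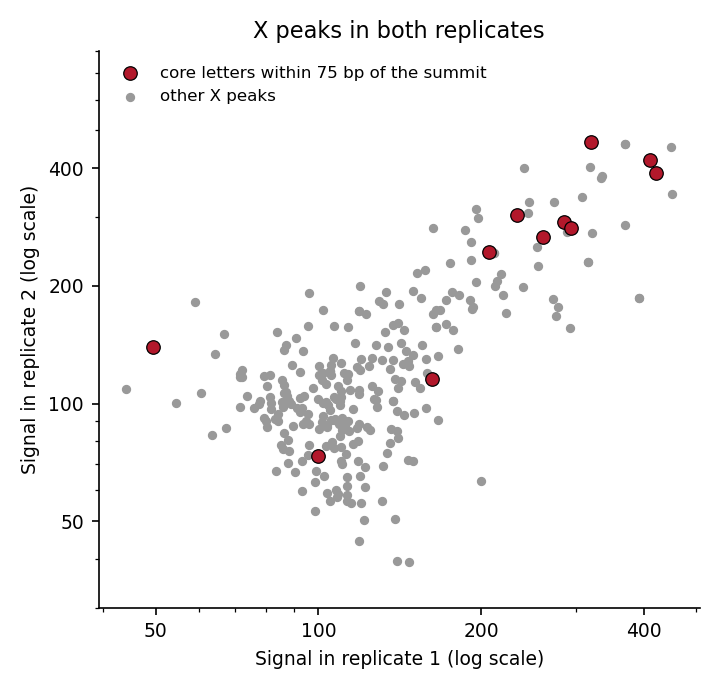
Signal of each X peak in replicate 1 (horizontal axis, log scale) and replicate 2 (vertical axis, log scale), each point being 1 of the 285 peaks met by an entry in both replicate lists. Red points hold GCGCAGGG within 75 bp of the summit. The 8 strong ones lie at the upper right, with replicate 1 signals of 207 to 422 and replicate 2 signals of 244 to 468, and the other 3 among the weaker peaks.

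As a whole, X peaks met strong entries of both replicates about as often as autosomal ones. Of the 294, 177 overlapped an entry within the top 1884 of both replicates, or 60.2% (95% Wilson interval 54.5% to 65.6%), against 54.9% of autosomal peaks (52.1% to 57.6%). Among the 50 X peaks of highest signal 49 did so, and among the 50 of lowest signal 1 did. The weak end of the list, with signals from 166 to 178, was thus rarely among the top entries of both replicates. The pooled signal draws on both replicates, so this contrast follows in part from ranking by it. Entries were missing altogether for 8 X peaks in replicate 1 and for 1 in replicate 2. The signal of X peaks had a median of 213 and a highest value of 903, against a median of 211 and a highest value of 5232 on the autosomes.

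Per length, X held about as many of these peaks as the autosomes. It held 16.6 peaks per megabase (95% Poisson interval 14.7 to 18.6) against 15.5 on the autosomes together (14.7 to 16.4). Single autosomes ran from 12.4 on chromosome V to 20.2 on chromosome III. Genome-wide, 5.35% of the pooled candidates outside small RNA genes were on the reproducible list. On X 294 of 5346 were, or 5.50% (4.92% to 6.14%), close to that background. X has 154 protein-coding genes per megabase against 209 on the autosomes, and it had 10.8 peaks per 100 genes against 7.42. Chromosome III came close to X with 10.6. With 1 X chromosome and 5 autosomes an exact permutation test over chromosomes could not go below p = 0.167, and peaks of 1 experiment are not replicates, so none was run and no difference here is called significant.

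Along the chromosome, X peaks did not gather in the centre as autosomal peaks did. When each chromosome was cut into 3 equal parts, the central part held 91 of 294 X peaks, 31.0% (95% Wilson interval 25.9% to 36.5%). On the autosomes it held 552 of 1279, 43.2% (40.5% to 45.9%), and the 5 autosomes ranged from 36.4% to 47.6%. The lowest was chromosome IV, where the left-hand part held more peaks than the central part, 95 against 86. On chromosome II the central and right-hand parts held 108 and 106. The difference was -12.2 percentage points in the reproducible list (Newcombe interval -17.9 to -6.08), and -12.4 in each replicate's own list. Protein-coding 5′ ends differed less, with 35.7% of those on X in the central part and 38.1% of autosomal ones, and other candidates stood at 31.9% and 34.6%. The right-hand part of X held 118 peaks, 40.1%, and the left-hand part 85, 28.9%.

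**Figure D2:**
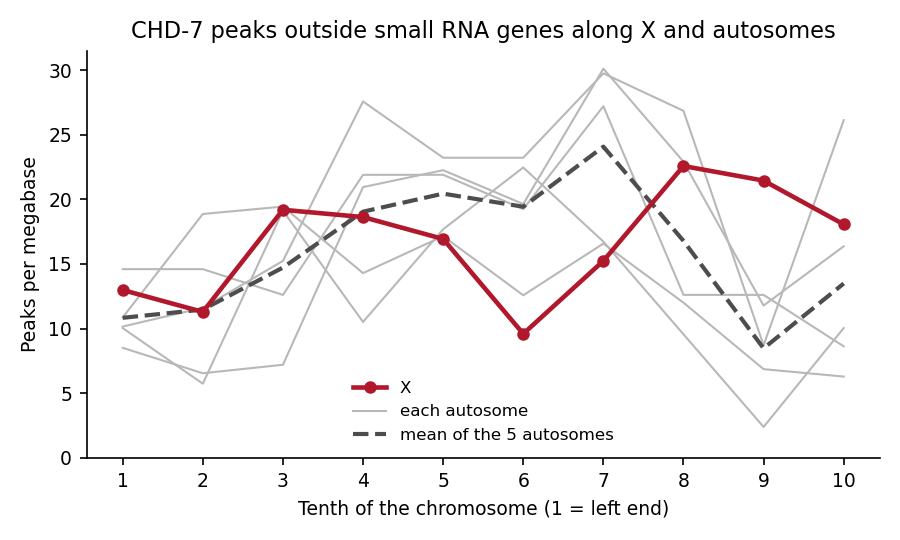
Peaks per megabase (vertical axis) in each of 10 equal bins from the left end of the chromosome (horizontal axis), for X (red), each of the 5 autosomes (thin grey) and their mean (dashed). X has its minimum of 9.6 in bin 6, where the autosomes have 12.6 to 23.2, and reaches 21.4 in bin 9, where they have 2.4 to 12.6.

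In megabase steps, X held from 5 peaks in the first megabase to 26 in the fourteenth. Its fullest megabase was below that of every autosome, where the maximum ran from 28 to 35. The longest stretch without a summit was 412321 bp, from the peak 3732 bp downstream of the 5′ end of ZC53.1 to the one 2608 bp upstream of aakg-4, a regulatory subunit of AMP-activated kinase. On the autosomes the longest stretch ran from 480425 bp on chromosome I to 1549718 bp on chromosome V. The coefficient of variation of the distance between neighbours was 1.23 on X, below the lowest autosomal value of 1.43.

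Outside small RNA genes, neighbouring summits lay within 10 kb of each other less often on X, but not within 1 kb. Their median distance was 29973 bp (quartiles 5372 and 85417) against 24313 bp (quartiles 3564 and 81806) on the autosomes. Of 293 distances, 90 were under 10 kb, 30.7% against 38.6% of autosomal ones, and X lay below all 5 autosomes, whose lowest was 33.6%. Under 1 kb the shares were 7.17% on X and 6.83% on the autosomes. Distances over 100 kb made up 22.2% on X and 20.0% on the autosomes. In replicate 1 the share under 10 kb was 30.1% on X and 39.3% on the autosomes, and in replicate 2 it was 35.3% and 38.7%. Median distances on X and the autosomes were nearer to each other, at 1.05 times in place of 1.23, among the 942 higher-ranked rows. With the rows at small RNA genes kept in on all chromosomes, the ratio was 1.01. The rule had removed 27.8% of X rows and from 12.3% to 16.4% of those on each autosome.

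**Figure D3:**
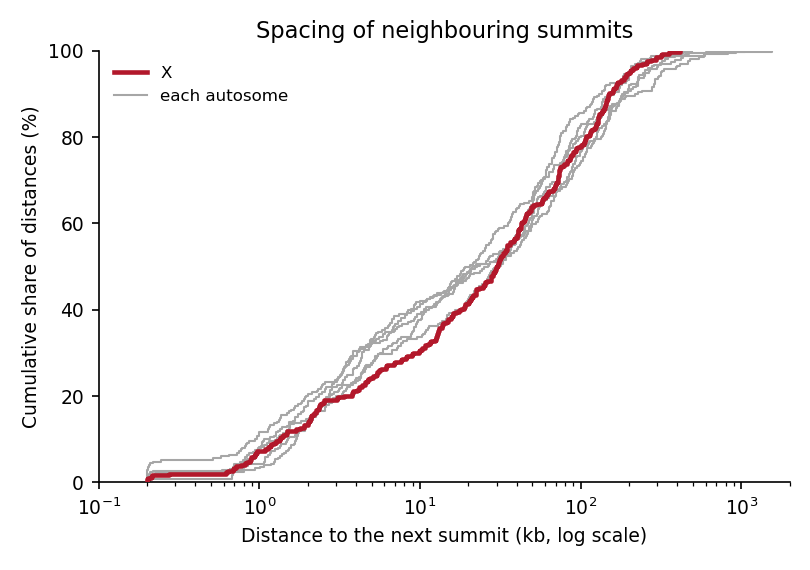
Cumulative share of distances between neighbouring summits outside small RNA genes (kb, log scale) for X (red) and each autosome (grey). The X curve is at 30.7% at 10 kb, below all 5 autosomes, and ends at 412321 bp, before any autosome.

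Some X loci nevertheless held rows of close peaks. Joining summits less than 10 kb apart left 204 groups, of which 150 were single peaks, 34 were pairs and 20 had 3 or more. The largest group had 9 peaks over 13898 bp around mdl-1, which encodes a MAD-like helix-loop-helix repressor that pairs with MAX-like proteins. Its strongest peaks lay 80 bp upstream of the 5′ end (X 6742129 to 6742400, signal 473), 1659 bp downstream of it (signal 518) and 4603 bp upstream (signal 460). Another 4, from 5813 to 8057 bp downstream of the 5′ end, were in introns of the neighbouring gene abts-4, an anion transporter. Of these, the rows at X 6749158 to 6749439 and X 6749329 to 6749718 overlap and share their replicate ranks (191 and 131), yet are counted apart.

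The next group, of 6 peaks, lay beside mxl-3, itself a MAX-like helix-loop-helix gene, with no summit inside it and signals from 197 to 281. Proteins of this family bind the E-box CACGTG. These letters stood within 75 bp of the summit in 5 of the 9 peaks at mdl-1 and 2 of the 6 at mxl-3, and in 12.9% of all X peaks. Both groups were picked out after their values were seen. A group of 5 peaks lay upstream of and within lin-14, a heterochronic transcription factor, with signals from 167 to 258. The densest 100 kb held 10 peaks, from ZK470.2 to W01H2.2, including the peak 339 bp upstream of vha-12 and the peak with the MEX letters near F20B6.9. A further 4 rows, at X 16929541 to 16932058, had summits 5865 to 7633 bp downstream of the 5′ end of C30E1.4, in and beside the non-coding RNA gene C30E1.9. They are 2 intervals listed with 2 summits each, with signals of 828, 511, 421 and 198, and the first is the second-strongest X row.

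X summits fell in intergenic sequence more often, and in coding exons less often, than autosomal summits. Summit positions were read in the Ensembl annotation. Intergenic sequence held 165 of 294 X summits, 56.1% (95% Wilson interval 50.4% to 61.7%), and 593 of 1279 autosomal ones, 46.4% (43.6% to 49.1%). The difference of 9.76 percentage points (Newcombe interval 3.42 to 15.9) was 12.97 in replicate 1 and 6.67 in replicate 2. X also has more intergenic bases, 41.0% against 31.6%, and relative to bases the summits stood at 1.37 times on X and 1.47 times on the autosomes. With the rows at small RNA genes kept in, the difference shrank to 1.54 points.

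Coding exons held 22 X summits, 7.48% (4.99% to 11.1%), against 220 autosomal ones, 17.2% (15.2% to 19.4%). The difference was -9.72 percentage points (-13.02 to -5.63), with -12.1 in replicate 1 and -5.75 in replicate 2. X lay below every autosome, the lowest of which was chromosome IV with 13.6%. Here the bases differ less, with 20.0% of X and 25.6% of autosomal bases in coding exons, so that summits stood at 0.375 times the base share on X and 0.671 times on the autosomes. Other candidates were in coding exons in 37.3% of cases on X and 44.4% on the autosomes.

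Introns held 58 X summits, 19.7%, against 21.4% on the autosomes, a difference whose interval of -6.45 to 3.68 includes 0. The 5′ UTR share was 3.06% against 3.28%. In 3′ UTRs lay 3 X summits, 1.02%, against 4.07% of autosomal ones (difference -3.05, interval -4.44 to -0.888, and -3.34 and -3.53 in the replicates). Exons of non-coding RNA genes outside protein-coding genes held 30 X summits, 10.2%, against 5.39% (difference 4.81, interval 1.54 to 8.95, and 5.12 and 3.36 in the replicates). Such exons make up 2.44% of X bases and 2.83% of autosomal bases. Relative to bases the summits stood at 4.18 times on X and 1.91 times on the autosomes. X has 2520 of the annotated ncRNA genes and the autosomes 5244, and 39 X summits lay inside one, 13.3% against 7.11%.

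**Figure D4:**
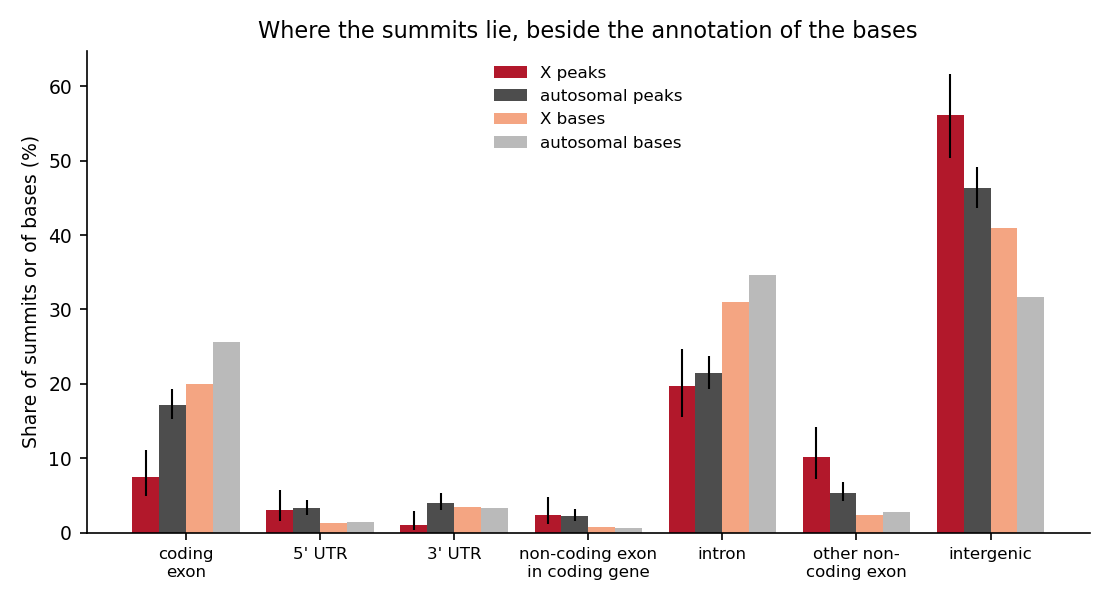
Share of summits in each annotation class for X peaks (red) and autosomal peaks (dark grey), with 95% Wilson intervals as error bars, beside the share of X bases (orange) and autosomal bases (light grey) in that class. Intergenic sequence is at 56.1% of X peaks and coding exons at 7.48%.

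Promoters of X genes were reached by peaks about as often as those of autosomal genes. The promoter window of a protein-coding gene was the 1000 bp before its annotated 5′ end and the 200 bp after it. Such windows held 106 X summits, 36.1% (95% Wilson interval 30.8% to 41.7%), against 522 autosomal ones, 40.8% (38.2% to 43.5%). The difference of -4.76 percentage points has an interval of -10.7 to 1.47, and it was -1.16 in replicate 1 and -7.26 in replicate 2. With windows of 2000 bp upstream and 500 bp downstream it was -12.3. Genome-wide, 3.76% of protein-coding genes had such a summit. On X 110 of 2731 genes had one, 4.03% (3.35% to 4.83%), against 641 of 17242 autosomal genes, 3.72%, so X was close to the background.

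Only 6 of the 106 X promoter summits lay in windows of more than 1 gene, 5.66% against 128 of 522, or 24.5%, on the autosomes. The difference of -18.9 percentage points (interval -23.8 to -11.8) was present in both replicates, with 5.77% against 21.9% in replicate 1 and 5.88% against 27.3% in replicate 2. Overlap of the windows themselves also differs: 5.05% of X window bases are in more than 1 window, against 12.005% of autosomal ones; the part this has in the difference was not tested. X peaks outside small RNA genes also lay farther from 5′ ends, at a median of 1650 bp from the nearest against 1022 bp, and 49 of 294 (16.7%) were over 5 kb away against 10.3% of autosomal peaks.

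The strongest X promoter peak lay 465 bp upstream of epn-1, an epsin of clathrin-mediated endocytosis, at X 14818796 to 14819191 (signal 903). Its signal ranked 18 in both replicates. Next were the peaks 295 bp upstream of serp-1.1 (X 15841148 to 15841425, signal 800, ranks 17 and 45 in replicates 1 and 2) and upstream of nspc-17, given above. The following pair of genes act on RNA. The peak 904 bp upstream of ain-1, a GW182-type partner of microRNA Argonautes, had a signal of 717 (X 16612309 to 16612701, ranks 46 and 35). That 300 bp upstream of puf-9, a Pumilio-type RNA-binding protein, had 695 (X 5841152 to 5841429, ranks 49 and 37), with its summit in an exon of a non-coding RNA gene. These 2 windows are shown because both held a GA repeat. The 6 letters GAGAGA, in capitals on either strand, were found in 30.3% of X and 32.5% of autosomal peaks, against 12.5% of other X candidates and 7.24% of X tiles of the same length.
ain-1 (chrX:16612472-16612622, forward strand): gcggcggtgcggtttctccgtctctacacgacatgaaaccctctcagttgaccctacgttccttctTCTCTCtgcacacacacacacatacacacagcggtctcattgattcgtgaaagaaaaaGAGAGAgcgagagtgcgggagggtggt
puf-9 (chrX:5841217-5841367, forward strand): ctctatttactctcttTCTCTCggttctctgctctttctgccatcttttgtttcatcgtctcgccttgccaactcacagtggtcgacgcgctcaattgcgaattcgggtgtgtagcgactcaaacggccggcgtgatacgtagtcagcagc

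Further down came chromatin, signalling and folding genes. The peak 717 bp upstream of spat-3, a RING1-like ubiquitin ligase, had a signal of 661 (X 4606410 to 4606727, ranks 33 and 83). The left part of its window, as read on the forward strand, is a long GT repeat. The peak at ftt-2, a 14-3-3 protein, had 640 (ranks 146 and 31). The endoplasmic reticulum chaperone hsp-3 followed with 589 (X 6092072 to 6092278, 57 bp upstream, ranks 53 and 95).

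Others of the 25 strongest promoter peaks were weaker. They were at sto-4, a stomatin (534), T13C5.6 (474), mdl-1 (473), bet-2, a bromodomain protein (445), and epg-7, an autophagy adaptor (429). Then came the translation elongation factor gene eef-1A.2 (417), the nuclear receptor gene nhr-48 (416), ZC506.1 (394), spc-1, which encodes alpha-spectrin (390), C18B12.4 (380) and cebp-1, a C/EBP-type bZIP factor (371). The last were nhr-1 (341), kin-29, a salt-inducible kinase (337), nipi-3, a Tribbles-type pseudokinase (336), dpy-23, the clathrin adaptor subunit AP2 mu (334), F13C5.2 (318), and a peak shared by R04E5.9 and cnnm-2 (314). The peak at F13C5.2 met no entry of the replicate 1 list and ranked 505 in replicate 2. Ranks of the others ran between 59 and 715 in replicate 1 and between 153 and 434 in replicate 2.

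In 6 gene lists of nerve and body wall functions, no X gene and few autosomal genes had a promoter summit. Of 34 X genes for neuropeptides and insulin-like peptides none had one, and the same held for 60 neurotransmitter and neuropeptide receptors, 23 channels, 26 homeodomain factors, 30 cuticle collagens and 13 genes for extracellular matrix and axon guidance. Together the 6 lists had 0 of 186 X genes with a summit and 6 of 526 autosomal genes, 1.14%, beside 3.76% of all protein-coding genes. The 6 lists were put together after their counts were seen, so the 0 on X was settled by that choice. The muscle list, with 2 of 11 X genes, was not among them. It holds unc-115, which could also be placed under axon guidance, and the 0 on X depends on that choice too. The autosomal counts ran from 0 of 21 for matrix and guidance to 2 of 66 for channels.

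The other lists had at most 3 X genes with a summit. Nuclear hormone receptors had 3 of 27 on X, nhr-48, nhr-1 and nhr-35 (273), against 9 of 247 on the autosomes. The vacuolar proton pump had 2 of 3 on X, vha-12 (X 4190560 to 4190949, signal 285) and vha-20 (228), against 4 of 18 on the autosomes. Yolk protein genes, which are made in the hermaphrodite intestine, had 2 of 5 on X, vit-5 (230, ranks 747 and 1086) and vit-2 (208, ranks 606 and 2088), both with the summit in a coding exon, 121 and 143 bp downstream of the 5′ end. The single autosomal yolk gene had none. The muscle list had 2 of 11 on X against 1 of 27 on the autosomes. The 2 were the actin-binding protein gene unc-115 (191) and the actin gene act-4 (169), and act-4 ranked only 4309 in replicate 2. Placing unc-115 in this list, and not under axon guidance, was a choice made when the lists were drawn up. Heat shock genes and chaperones had 1 of 5 on X, hsp-3, against 11 of 55 on the autosomes. Ribosomal protein genes had 0 of 2 on X against 19 of 77 on the autosomes, and a list of 2 genes is too short to compare. The counts on X are too small to set these lists apart from their autosomal members.

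Of the genes that count X chromosomes and set dosage compensation, 0 of 6 on X and 0 of 8 on the autosomes had a promoter peak. With 3.76% of all genes having one, a list this short would mostly show none. The nearest peak to xol-1, the master switch of sex determination, lay 4787 bp upstream (X 8036308 to 8036621, signal 554, ranks 142 and 52 in replicates 1 and 2). This is the peak whose summit is 159 bp from a tRNA gene. For sex-1, ceh-39, sdc-2, fox-1 and sdc-1 the nearest X peak was from 16779 to 77019 bp from the 5′ end. Of the TGF-beta and BMP-like pathway genes, which control body size among other traits, 1 of 4 on X and 1 of 18 on the autosomes had a promoter peak. The X gene was kin-29, with a peak 267 bp upstream (ranks 401 and 348). sma-9, a Schnurri-type factor, had no promoter peak but had 2 in introns (signals 239 and 289, the first at rank 8520 in replicate 1) and 1 at 2921 bp upstream (signal 500, ranks 125 and 121). For lon-2, a glypican, the nearest peak was 142438 bp from the 5′ end.

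Distal peaks were about as common among the strongest X peaks as among all of them. Promoter windows held 36.1% of all X peaks and 38% of the 50 strongest. Of the 50 strongest X peaks, 31 were outside promoter windows. The 5 strongest lay downstream of C30E1.4 (signal 828, ranks 32 and 16 in replicates 1 and 2), in mom-1, near W02H3.3, 6036 bp upstream of K02D3.1 (718, ranks 57 and 29) and near F55G7.5 (650, ranks 64 and 50). The strongest and the last 2 of these lack the MEX letters. Over all X peaks, the 106 at promoters had a median signal of 233 and the 188 distal ones 207, and 68.9% and 55.3% of them were within the top 1884 of both replicates.

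The summits of X peaks were slightly more GC-rich than autosomal ones. The median GC content within 75 bp was 49.01% (quartiles 43.2% and 53.6%) on X and 46.4% (41.7% and 51.7%) on the autosomes, although the X sequence as a whole is at 35.2%, below 4 of the 5 autosomes. CA repeats, searched as CACACA on both strands, were in 26.9% of X peaks (95% Wilson interval 22.1% to 32.2%) and 18.0% of autosomal peaks (16.0% to 20.2%). The difference was 8.89 percentage points (interval 3.66 to 14.6), and the shares were 27.3% against 17.8% in replicate 1 and 25.2% against 18.4% in replicate 2. These letters are also commoner in other X candidates, at 12.1% against 9.15%, and in X tiles, at 7.20% against 6.16%. The E-box CACGTG was in 12.9% of X and 11.2% of autosomal peaks (1.98% of X tiles), GCGCGC in 8.16% and 8.37% (0.876% of X tiles), and the GATA site CTGATAA in 1.36% and 2.42% (2.81% of X tiles), with intervals of the difference that include 0 for these 3 and for GAGAGA.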

How the data were processed

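Peak lists of the tagged CHD-7 protein were analysed for 2 biological replicates. Per the file headers and listings deposited with the samples, each replicate list and the pooled list were called against 1 control alignment, and the reproducible list was derived from them; which aligner, peak caller and cutoffs were used is not given in the sources used here. In the authors' lists, signal is the caller's value per peak and was used to rank peaks within a list, and replicate signals are each on their own list's scale. The deposited −log10 q-value was not used, since most reproducible peaks share its highest value. The reproducible list is the 1884 pooled entries of highest signal, and the other 3 lists hold 30000 entries each. Read depth is unknown, so intervals cover counts of peaks only.

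Positions on ce11 were set against Ensembl release 115 (WBcel235), and sequences were read from the RefSeq genome of the same assembly. Summits were taken as start plus offset. Where annotations overlap, a coding exon took precedence over UTRs (5′ before 3′). Then came exons of genes that are not protein-coding, classed apart inside and outside protein-coding genes. Introns, the rest of any gene body, followed, and last came the intergenic class. A replicate's rank for a peak is its best entry that overlaps by 1 bp. Python 3.11.15, pandas 2.3.3, numpy 2.4.6 and scipy 1.17.1 were used, and functions were tested on made-up peaks with known answers. No p-value was computed for peaks.

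The members, the 14 gene lists and the 7 motifs were chosen with earlier results of these data known. Named genes are those of the 25 strongest promoter peaks, up to 4 per list, the X counting, lon-2, sma-9 and kin-29 genes, the 5 strongest distal peaks and the ends of the longest gap and densest 100 kb. Others, including the groups of close peaks, the motif letters and their flanks, were chosen after their values were seen.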

Additional observations from a re-analysis of the deposited data

How the results depend on the processing

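No paired analysis was possible because there is 1 group and no second condition. Most results moved by less than the spread between the replicates' own lists. Leaving out 1 replicate gave 300 to 313 X peaks, a density ratio of X to autosomes of 1.07 to 1.15 against 1.07, a ratio of median distances of 1.14 to 1.34 against 1.23, 107 to 123 promoter genes and 11 to 13 peaks with GCGCAGGG. Differences of X and autosomal shares then ran from -12.1 to -5.75 points for coding exons, from 6.67 to 12.97 for intergenic sequence and from -7.26 to -1.16 for promoters. With the 942 higher-ranked rows there were 141 X peaks and 64 promoter genes, by construction fewer, and the distance ratio was 1.05. With all 407 X rows the density ratio was 1.28, the distance ratio 1.01 and the intergenic difference 1.54, with tRNA-rich X rows kept in. Windows of 2000 bp up and 500 bp down gave a promoter difference of -12.3, and the cause was not tested. The share of X peaks in the top of both replicates was 33.3% for lists of 942 and 84.4% for lists of 3768. Searching 50 or 150 bp each side of the summit found the letters in 8 or 13 X peaks. With no read counts, a peak missing from a list cannot be read as absence of binding.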

Other observations

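Of 74 annotated X microRNA genes, 5 had an X peak in the 1000 bp before or the 200 bp after their 5′ end, 6.76% (95% Wilson interval 2.92% to 14.9%), against 17 of 187 autosomal ones, 9.09% (5.75% to 14.1%). These 5 rest on 3 peaks, since neighbouring genes share 1. The genes mir-54, mir-55 and mir-56, which lie together, shared the peak at X 13145150 to 13145415 (signal 473, ranks 230 and 75 in replicates 1 and 2). The peak at mir-55b had a signal of 213 (ranks 509 and 2845) and that at mir-47 had 223 (ranks 2807 and 463), so each of these was within the top 1884 of only 1 replicate.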
